A study of Mus musculus with 41 samples.

Results

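Translational efficiency (TE), the ribosome footprint level of a gene relative to its mRNA level, was compared between Pelo-/- and control primary mouse embryonic fibroblasts (MEFs). The samples were taken by their labels: 3 footprint libraries labelled CAG-Cre ER; Pelo cKO, 3 CAG-Cre ER footprint libraries of the same labelled batch, 2 Pelo cKO polyA RNA libraries and 3 control polyA RNA libraries, which make 11 of the 41 samples of the series. All groups were of the C57BL/6 strain, carried the CAG-Cre ER transgene and had been treated with tamoxifen, and the Pelo-/- groups also carried the conditional Pelo allele, from which the recombinase removes a floxed exon. The CAG promoter that drives the recombinase is broadly active, and each library came from the cells of a single embryo. Footprints (batch 4 in the labels) and RNA (batch 6) came from separate dishes. A further Pelo-/- RNA sample was left out by the study as an outlier and was not analysed here. The question was for which genes the footprint change after Pelo loss departs from the RNA change, which the assay-by-genotype interaction term tests.

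PELO and its GTPase partner HBS1L enter the empty A site of a ribosome that has stalled within or at the end of an mRNA and, together with the ATPase ABCE1, split the subunits so that the ribosome and the mRNA can be released. PELO resembles the termination factor eRF1 but lacks the ability to release the nascent peptide. Other pathways meet the same ribosomes: ZFP598 and the ASC-1 complex act on collided ribosomes, NEMF and LTN1 mark the nascent chain on the released large subunit, the Ski complex and the exosome degrade the mRNA, and the UPF and SMG proteins act in nonsense-mediated decay. A TE change is a ratio of ratios. It can come from the footprint side, from the RNA side or from both, and a fall in RNA with unchanged footprints gives a higher TE by construction.

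Totals were 16704819 to 25607974 footprints in the Pelo-/- libraries, 11251272 to 12722830 in the control footprint libraries, 23166888 to 26829522 estimated RNA counts in the Pelo-/- libraries and 22713643 to 77329534 in the control RNA libraries. The Y-linked genes Kdm5d, Eif2s3y, Uty and Ddx3y were present in Pelo-/- footprint libraries 1 and 2 but only in Pelo-/- RNA library 1, with Ddx3y at 97.3 CPM (counts scaled to the library total) in footprint library 2 and 0.0494 CPM in RNA library 2. In the controls they were present in library 3 and near 0 in libraries 1 and 2 of both assays. Pelo-/- libraries with the same number therefore need not come from the same embryo, and the numbers were not used to pair the assays. The fibroblast markers were present in every library, with summed levels of 36700 to 40800 CPM in Pelo-/- footprints, 29000 to 29900 in control footprints, 15900 to 16200 in Pelo-/- RNA and 11500 to 13700 in control RNA. In bulk cultures, fewer cells of a type and less RNA per cell cannot be told apart.

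Of 12154 genes tested, 5426 (44.6%) had a TE that differed at an adjusted p of 0.05 by edgeR's quasi-likelihood test, with 2948 higher (24.3%) and 2478 lower (20.4%) in Pelo-/- cells. Footprints alone differed for 5318 genes (43.8%), with 2744 higher (22.6%) and 2574 lower (21.2%). RNA alone differed for 4835 genes (39.8%), with 2338 higher (19.2%) and 2497 lower (20.5%). The counts of list members given below are to be read beside these shares. The spread of the log2 changes was wider for TE (SD 0.907 across genes) than for footprints (0.768) or RNA (0.56). The footprint and RNA changes were nearly unrelated across genes (Pearson's r = 0.0951, n = 12154 genes, which are not independent replicates).

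**Figure D1:**
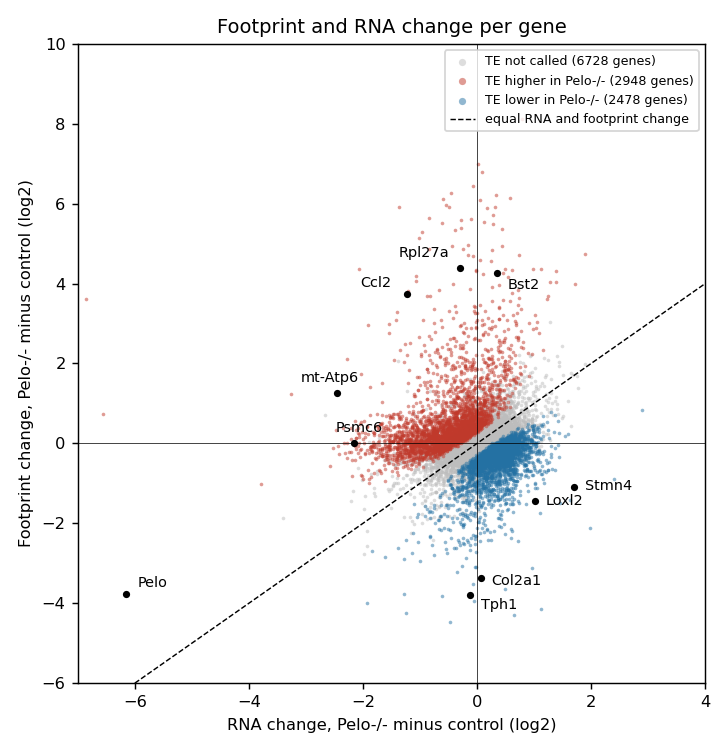
Footprint change (vertical axis, log2) against RNA change (horizontal axis, log2) of the 12154 tested genes, Pelo-/- minus control. Points above the dashed line of equal change have a higher TE (2948 called) and those below it a lower TE (2478 called). Ccl2 and Bst2 lie high above the line, Psmc6 and mt-Atp6 lie to the left of it and Tph1 and Col2a1 lie below it.

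The TE calls came from the footprint side and from the RNA side. The RNA side rests on 2 Pelo-/- libraries, and its 4835 calls became 2885 without library 1 and 2316 without library 2. Of the 5426 genes, 1985 (36.6%) had only a footprint call and 1802 (33.2%) only an RNA call, while 954 (17.6%) had calls in opposite directions, 366 (6.75%) calls in the same direction and 319 (5.88%) no call on either side. Among the genes with higher TE, 1091 had higher footprints only, 1008 lower RNA only and 447 both. Among those with lower TE, 894 had lower footprints only, 794 higher RNA only and 507 both. Read from the RNA side, 1229 of the 4835 genes with an RNA call had footprints called in the same direction, 954 in the opposite direction and 2652 had no footprint call.

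The RNA side of this ratio moved with the base composition of the transcripts. Across 12134 genes with a known GC content, the RNA change rose with GC content (r = 0.445), the footprint change did not follow it (r = 0.0353), and the TE change fell with it (r = -0.245). In the lowest of 10 equal bins of genes by GC content, 31.9 to 42.4% GC, the median log2 change was -0.82 for RNA, -0.08 for footprints and 0.77 for TE, and 57.2% of these genes were called higher in TE. From the fourth bin upwards the medians of TE lay between -0.12 and -0.02. Both Pelo-/- RNA libraries lay on one side of the relation (r of each library's deviation with GC content of 0.352 and 0.469) and the 3 control RNA libraries on the other (-0.225, -0.543 and -0.287). Genotype and this property of the RNA libraries cannot be told apart here. When the GC trend was removed within each assay, a step added after seeing the data, 5545 genes were called and the split turned to 2329 higher (42.0% of calls, against 54.3% without the step) and 3216 lower. Of the 5426 genes, 4648 kept their call and 26 were called in the opposite direction. RNA alone was called for 4687 genes after this step. Of these, 3075 were higher (65.6% of calls, against 48.4% without the step) and 1612 lower. Medians of most gene lists are therefore given below also with the GC trend removed.

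**Figure D2:**
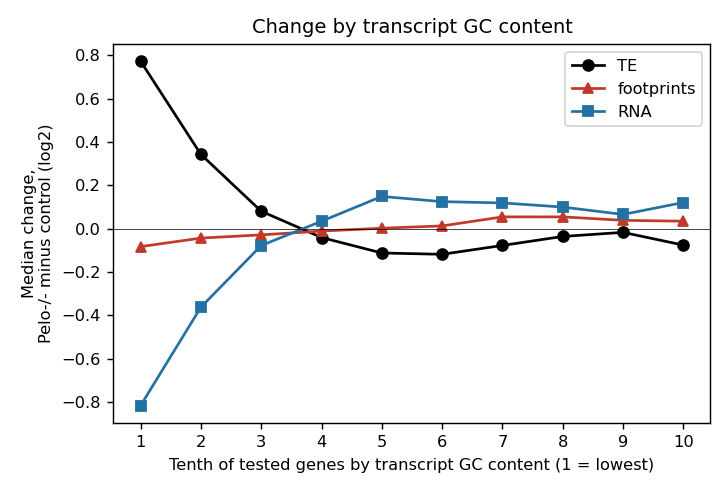
Median log2 change, Pelo-/- minus control, of TE (circles), footprints (triangles) and RNA (squares) in 10 equal bins of the tested genes ordered by transcript GC content, the lowest on the left. The RNA median climbs from -0.82 in the lowest bin to 0.03 in the fourth, the TE median mirrors it from 0.77 to -0.04, and the footprint median stays between -0.08 and 0.05.

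Pelo itself (chr13:115088355-115090186, minus strand, GRCm38) was reduced in both assays. Its footprint level was 2.82, 2.99 and 2.01 CPM in the Pelo-/- libraries against 34.6, 38.3 and 31.8 CPM in the controls, and its RNA level was 0.631 and 0.0998 CPM against 27.4, 27.6 and 28.5 CPM. RNA fell further than footprints, so that the fitted TE of Pelo was higher (log2 change 2.38 ± 0.42 SE, adjusted p = 0.000535), a value that rests on Pelo-/- RNA levels below 1 CPM and was 4.25 without Pelo-/- RNA library 1 and 1.67 without library 2. Every Pelo-/- library lay below every control library in both assays, as it did for 26.8% of tested genes in footprints and 33.2% in RNA. Hbs1l, the partner GTPase, had footprints of 28.6, 29.0 and 26.6 CPM against 38.0, 37.5 and 32.8 CPM, while its RNA level (84.7 and 102 against 83.2, 89.4 and 92.0 CPM) was not called. Its TE was lower by 0.44 on the log2 scale (SE 0.13, adjusted p = 0.0161). This call was lost without Pelo-/- RNA library 2, where the value was -0.315, and with the replicate block within genotype (-0.40, adjusted p = 0.0618).

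Of the 8 rescue factors tested, 4 were higher and 1 lower in TE (median 0.25, 0.23 with the GC trend removed), Pelo itself being 1 of the 4 and Hbs1l the lower gene. Ascc3, the helicase of the complex that pulls apart collided ribosomes, rose on the footprint side (178, 176 and 180 against 106, 108 and 114 CPM) while its RNA fell (15.02 and 8.33 against 28.2, 41.6 and 32.9 CPM), giving a TE change of 2.24 ± 0.25 (adjusted p = 1.87e-05). Abce1, the recycling ATPase, had footprints of 246, 232 and 230 against 220, 212 and 258 CPM, which overlap, with RNA at 54.4 and 37.0 against 142, 167 and 152 CPM and a TE change of 1.78 (0.98 with the GC trend removed). The RNA groups of Abce1 were apart and its footprint groups were not. The TE change of Ascc3 was 1.65 with the GC trend removed. Gtpbp1, a GTPase related to HBS1L, passed narrowly (0.31, adjusted p = 0.0362), and its call was lost in 10 of the alternative settings, with values of 0.26 to 0.34. Gtpbp2 (0.19), the collision sensor Zfp598 (-0.04) and Ascc2 (-0.07) were not called.

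Among 14 genes of ribosome quality control and the Ski complex, 6 were higher and 0 lower in TE, with a median of 0.17 (0.06 with the GC trend removed). Nemf, which elongates the nascent chain on the stalled large subunit, showed footprints of 76.0, 79.3 and 65.1 against 76.3, 68.4 and 83.4 CPM and RNA of 13 and 12.6 against 28.6, 36.8 and 33.7 CPM (TE 1.32, adjusted p = 5.39e-05, 0.73 with the GC trend removed). The Ski subunits Ttc37 (0.89, then 0.47) and Wdr61 (0.91, then 0.75) also rose in TE with overlapping footprints and lower RNA. Of 12 nonsense-mediated decay factors 2 were higher in TE and 0 lower (median 0.09), beside 24.3% of all genes called higher, a difference that was not tested. They were Upf2 (1.43, adjusted p = 0.000208, 0.99 with the GC trend removed) and Upf3b (1.38, adjusted p = 4.88e-05, then 0.82), again with lower RNA and no footprint call. Upf1, the helicase of the pathway, was higher in footprints (249, 258 and 246 against 212, 216 and 192 CPM) and in RNA (132 and 140 against 91.2, 98.04 and 88.7 CPM), and its TE was not called (-0.28, adjusted p = 0.0548). With the GC trend removed, 6 genes of the quality control list were higher and 2 lower, and 3 of the decay factors were higher and 1 lower. In that fit 2329 of 12134 genes were higher and 3216 lower.

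The cytosolic ribosomal proteins were mostly higher in TE. Of 31 tested proteins of the 40S subunit 28 were higher in TE and 0 lower, with a median of 0.97, and of 45 of the 60S subunit 37 were higher and 0 lower, with a median of 1.07, against a median of 0.04 over all tested genes. Footprints were higher for 19 and 34 of them, and RNA was lower for 25 and 32. The medians were 1.0 and 1.10 with the GC trend removed, with the same counts of calls. Rps19, a 40S subunit protein, had footprints of 176, 180 and 176 against 133, 123 and 124 CPM and RNA of 654 and 692 against 934, 825 and 921 CPM, for a TE change of 0.90 ± 0.11 (adjusted p = 4.98e-05). Rps3a1 rose by 1.58, with footprints of 30.5, 27.5 and 33.6 against 22.5, 23.97 and 20.2 CPM and RNA of 549.6 and 614 against 1308, 1143 and 1338 CPM. Rpl27a of the 60S subunit had the largest TE change of these genes (4.70 ± 0.25, adjusted p = 1.16e-07), with footprints of 86.1, 127 and 83.7 against 3.96, 4.71 and 5.34 CPM and RNA of 378 and 440 against 503, 459 and 549 CPM. Rps16 (2.69) likewise had low footprint levels in controls (3.34, 4.14 and 2.32 CPM) beside RNA levels of 674, 617 and 745 CPM. Ribosomal protein genes have near-identical processed pseudogenes, and reads that match several copies can be lost or shared differently by the aligner used for footprints and the pseudoaligner used for RNA, so that the levels of single members are uncertain. In 48 of the 76 tested members the footprint CPM was below 0.1 of the RNA CPM. The median TE change was 1.06 in these 48 (38 higher) and 0.91 in the other 28 (27 higher). Rps6, Rps27 and Rps29 of the small subunit were not called.

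Ribosomal protein mRNAs are known for a 5′ terminal oligopyrimidine (TOP) tract, a C at the first transcribed base followed by a run of pyrimidines, through which mTORC1 and LARP1 control their translation. The tract was searched as a C at the annotated RefSeq start followed by at least 4 pyrimidines (C or T) on the coding strand. The genes shown were chosen after their values were seen, as members with the tract and a higher TE, with Rps6 as a member with the tract whose TE was not called. They are given with 5 bases before and 20 bases from the RefSeq start (GRCm38.p6), the tract in capitals. Rpl27a, the ribosomal protein gene with the largest TE change, has a T and not a C at its RefSeq start. It therefore fails the search although a run of pyrimidines follows, and is in lower case. Fau encodes a ubiquitin-like protein fused to a 40S protein, Rack1 a scaffold on the 40S subunit and Eif3f a subunit of initiation factor eIF3.

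Fau, chr19:6057942-6057966, plus strand: cacttCTTCCTCTTTCTTgactcca

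Rps18, chr17:33955646-33955670, minus strand: ccgctCTCTCTTCCacaggaggcct

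Rpl35, chr2:39005112-39005136, minus strand: ctttcCTCTTTCTCTCgaaccaggc

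Rpl38, chr11:114668575-114668599, plus strand: tcgttCTTTCCCCgttctcttcggt

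Rack1, chr11:48800355-48800379, plus strand: tctttCTTTTTCTCCacagggtcgt

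Eif3f, chr7:108934410-108934434, plus strand: gctctCTCTCTTTCTCggcaagatg

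Rps6, chr4:86857348-86857372, minus strand: cgggcCTCTTTTTCgtgacgcctcc

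Rpl27a, chr7:109519190-109519214, plus strand: gctcctcccttttccctttctgcca

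The TE changes of these genes were 1.54 for Fau, 1.13 for Rps18, 1.16 for Rpl35, 1.99 for Rpl38, 0.68 for Rack1, 0.52 for Eif3f and -0.06 for Rps6 (adjusted p = 0.895). A RefSeq start was matched for 57 ribosomal protein genes, of which 13 carried the tract, against 2.9% of the 9655 tested genes matched and 2.51% of the 32851 starts in the table. The 13 had a median TE change of 0.87 (10 higher) and the 44 without the tract 1.05 (38 higher). A start that is annotated a few bases off hides the tract, so that its absence says only that these letters are not at this position. Among genes on neither list of TOP mRNAs, the 263 with the tract had a median of -0.05 and 18.3% were higher in TE, and the 9322 without it had a median of 0.04 and 24.1% were higher.

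Other known TOP mRNAs, which encode elongation factors, eIF3 subunits and nucleolar proteins, were higher in TE for 16 of 19 and lower for 0, with a median of 0.59 (0.54 with the GC trend removed). Npm1, a nucleolar chaperone of ribosome assembly, had footprints of 245, 238 and 241 against 184, 168 and 207 CPM and RNA of 283 and 195 against 741, 782 and 847 CPM, for a TE change of 2.098 ± 0.18 (adjusted p = 3.35e-06). Eif3e rose by 1.85 (1.04 with the GC trend removed) with overlapping footprints (235, 221 and 218 against 227, 199 and 236 CPM) and RNA of 76.8 and 65.7 against 268, 244 and 245 CPM. Npm1 was at 1.55 with the GC trend removed. The intermediate filament gene Vim (-0.01), Pabpc1 and Eif2s3x were not called.

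Of 34 initiation factors, 20 were higher and 2 lower in TE, with a median of 0.52, which became 0.23 with the GC trend removed (16 higher and 2 lower). Eif2s1 and Eif2s2, which encode the alpha and beta subunits of eIF2, had TE changes of 1.30 and 2.13, which became 0.55 and 1.52 with the GC trend removed. Footprints of Eif2s2 overlapped (90.3, 78.6 and 85.0 against 78.1, 66.0 and 83.5 CPM), while its RNA was 69.5 and 51.6 against 231, 234 and 250 CPM. The lower genes were the scaffolds Eif4g1 and Eif4g3. Of 16 elongation, termination and recycling factors 8 were higher and 0 lower (median 0.39, 0.34 with the GC trend removed). Eef1g, a subunit of the eEF1 exchange complex, rose on the footprint side from 45.2, 55.6 and 37.5 CPM in controls to 80.2, 85.8 and 82.3 CPM while its RNA fell (TE 1.17, adjusted p = 0.00019).

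**Figure D3:**
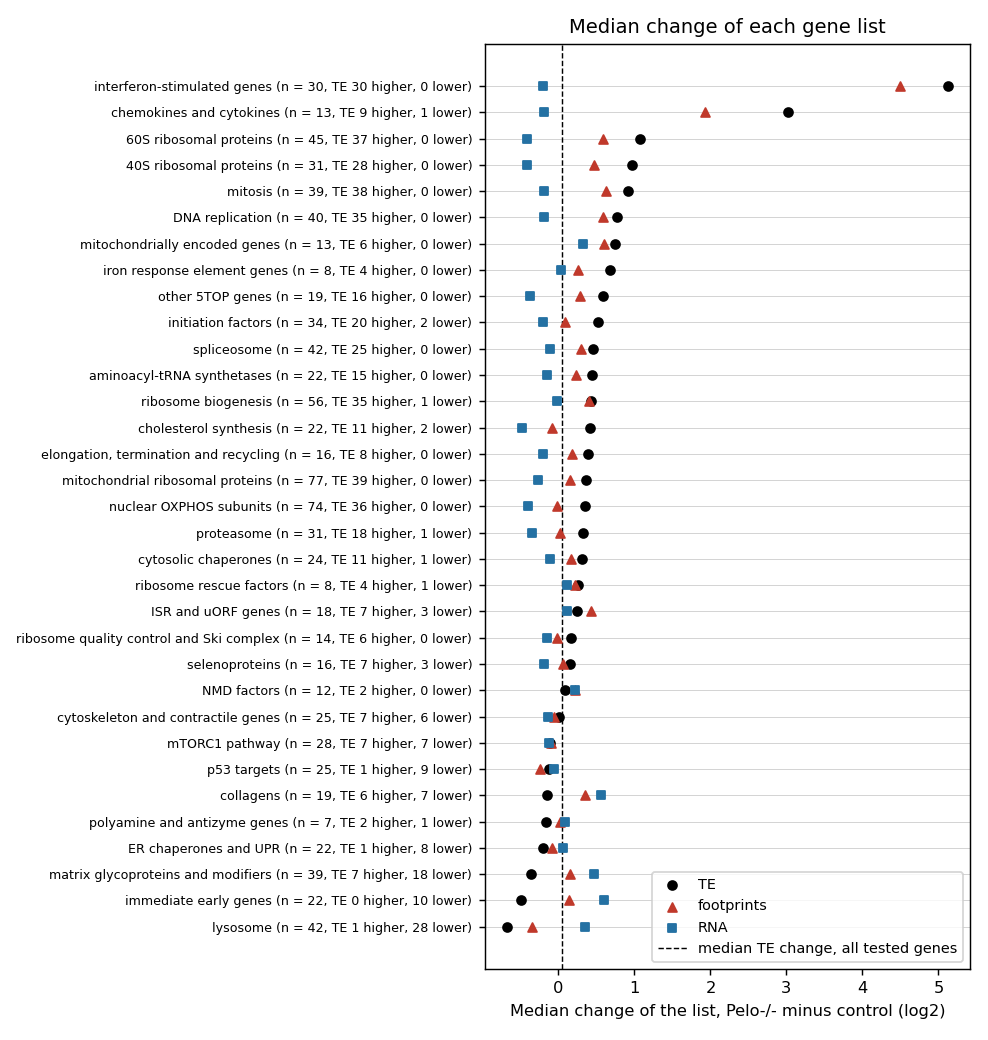
Median log2 change of TE (circles), footprints (triangles) and RNA (squares), Pelo-/- minus control, for the 33 gene lists, ordered by the TE median, with the number of members tested and called beside each name. The dashed line is the median TE change of all tested genes, 0.04. Interferon-stimulated genes (5.13) and chemokines (3.02) stand apart through footprints, ribosomal proteins near 1, and lysosomal genes lowest at -0.68.

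Ribosome biogenesis factors rose mainly in footprints. Of 56, footprints were higher for 49 and lower for 1, RNA was higher for 14 and lower for 18, and TE was higher for 35 and lower for 1 (median 0.42, 0.40 with the GC trend removed). Mphosph10, a component of the small subunit processome, had footprints of 73.4, 75.5 and 67.7 against 48.6, 48.3 and 58.0 CPM and RNA of 9.38 and 7.04 against 24.5, 27.2 and 27.9 CPM (TE 2.17). The helicase Ddx10 also had higher footprints and lower RNA (2.07), while the export adaptor Nmd3 had a TE change of 1.45 with overlapping footprints, which became 0.57 with the GC trend removed. In that fit Mphosph10 was at 1.62 and Ddx10 at 1.55. Of 22 aminoacyl-tRNA synthetase genes, which charge tRNAs, 15 were higher and 0 lower (median 0.44, 0.33 with the GC trend removed). Mars, the methionyl enzyme, rose in footprints (261, 261 and 269 against 188, 186 and 203 CPM) without an RNA call, whereas the call of the aspartyl enzyme Dars (0.82) rested on RNA and was lost with the GC trend removed (0.11, adjusted p = 0.453).

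Nuclear-encoded subunits of oxidative phosphorylation were higher in TE for 36 of 74 and lower for 0 (median 0.35 with and without the GC trend), with footprints higher for 2 and lower for 12 and RNA lower for 52. Cox7b, a subunit of cytochrome c oxidase, had footprints of 89.5, 94.9 and 97.9 against 89.8, 86.4 and 102 CPM and RNA of 28.4 and 31.5 against 85.1, 82.1 and 88.2 CPM, a pattern of overlapping footprints with lower RNA (TE 1.53, adjusted p = 1.8e-06, 0.89 with the GC trend removed). Atp5pb of the ATP synthase (0.95) and Uqcrb of complex III (1.71, 1.12 with the GC trend removed) showed the same overlap in footprints. Mitochondrial ribosomal proteins were higher for 39 of 77 and lower for 0 (median 0.36, 0.34 with the GC trend removed), led by Mrpl1 (2.05, 1.30 with the GC trend removed) and Mrpl47 (1.56). The 13 genes encoded by the mitochondrial genome, whose transcripts have a median GC content of 37.1%, had a TE median of 0.75 (6 higher, 0 lower) that turned to -0.37 with the GC trend removed (2 higher, 5 lower). mt-Co3 had footprints of 25.04, 31.5 and 26.7 against 6.42, 12.6 and 11.5 CPM, with each group apart, and kept its call (2.16, then 1.14), whereas mt-Co2 and mt-Atp8 lost theirs. mt-Atp6 had a TE change of 3.72 ± 0.45 (adjusted p = 3.74e-05, 2.51 with the GC trend removed) and overlaps mt-Atp8, so that reads of these can be assigned to either.

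Proteasome subunits differed mainly in RNA. Of 31, RNA was lower for 20 and higher for 0, footprints were higher for 1 and lower for 1, and TE was higher for 18 and lower for 1 (median 0.33, unchanged at 0.33 with the GC trend removed). Psmc6, an ATPase of the regulatory particle, had footprints of 292, 284 and 274 against 284, 269 and 289 CPM and RNA of 26.6 and 22.7 against 110, 113 and 111 CPM, for a TE change of 2.19 ± 0.11 (adjusted p = 9.98e-08) with overlapping footprints. Its transcript has a GC content of 37.2%, and with the GC trend removed the TE change was 1.02. Psmd6, Psma1 and Psma3 followed with 0.94, 0.94 and 0.90, which became 0.87, 0.58 and 0.41 with the GC trend removed. Among cytosolic chaperones (11 higher and 1 lower of 24, median 0.31, 0.30 with the GC trend removed), Hsp90aa1, the inducible HSP90, had footprints of 249, 258 and 244 against 229, 222 and 224 CPM, which were not called, and RNA of 327 and 189.5 against 1040, 1106 and 1109 CPM (TE 2.22). Spliceosome genes were higher for 25 of 42 and lower for 0 (median 0.45, 0.36 with the GC trend removed), with footprints higher for 29. Snrpe, an Sm core protein, rose in footprints (48.7, 42.1 and 45.2 against 26.4, 33.2 and 31.6 CPM) and fell in RNA, with a TE change of 1.71. Removing the GC trend brought Snrpe to 1.19 and Hsp90aa1 to 1.71.

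Genes of the cell cycle were mostly higher in footprints. Of 39 mitotic genes, 38 were higher in footprints and 38 in TE and 0 lower in either (TE median 0.92, 0.81 with the GC trend removed), with RNA lower for 17 and higher for 0; Aurka was the member not called in TE. Of 40 DNA replication genes, 33 were higher in footprints, 35 in TE and 0 lower in either (median 0.77, 0.73 with the GC trend removed), with RNA lower for 16 and higher for 2. Ccnb1, the mitotic cyclin B1, had footprints of 18.8, 18.9 and 19.5 against 10.8, 9.51 and 9.89 CPM and RNA of 55.0 and 50.9 against 68.8, 71.9 and 69.7 CPM, for a TE change of 1.33 ± 0.12 (adjusted p = 4.2e-06). Bub1, a checkpoint kinase, had footprints of 88.1, 84.5 and 92.5 against 60.9, 51.0 and 73.8 CPM and RNA of 8.33 and 6.09 against 21.5, 23.7 and 23.7 CPM (TE 2.18). Mcm5, a subunit of the replicative helicase, rose by 1.10 from the footprint side only (228, 221 and 261 against 126, 112 and 128 CPM), its RNA being 124 and 119 against 126, 128 and 148 CPM. Pola1, the catalytic subunit of DNA polymerase alpha, had the largest value of the replication list (2.37). Removing the GC trend brought Pola1 to 1.70 and Bub1 to 1.47.

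Interferon-stimulated genes and chemokines had the highest median TE changes of the 33 lists. Of 37 listed interferon-stimulated genes 30 passed the filter, and all 30 were higher in footprints and in TE (median TE 5.13, 4.79 with the GC trend removed), while RNA was lower for 5 and higher for 0; a gene that passes the filter in footprints only through the Pelo-/- libraries had to differ. Bst2, which tethers enveloped virus particles to the cell surface, had footprints of 453, 414 and 500 against 19.97, 21.2 and 29.5 CPM and RNA of 12.6 and 11.8 against 8.08, 9.11 and 11.4 CPM, for a TE change of 3.95 ± 0.23 (adjusted p = 1.96e-07). The footprint groups of Bst2 were far apart, and its RNA was not called. Ifih1, a sensor of double-stranded RNA, rose in footprints from 8.62, 7.55 and 11.3 to 153, 129 and 174 CPM with lower RNA (1.64 and 1.45 against 2.26, 3.95 and 3.45 CPM) and a TE change of 5.14. Ifi35 (3.02) and the GTPase Irgm1 (2.29) rose likewise with RNA that was lower. Lgals3bp, a secreted glycoprotein, and the class I gene H2-K1, whose near-identical relatives make its counts uncertain, had TE changes of 3.82 and 3.74.

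Of 16 listed chemokines and cytokines 13 were tested, 9 were higher in TE and 1 lower (median 3.02, 1.87 with the GC trend removed). Here too, a gene that passes the filter in footprints only through the Pelo-/- libraries had to differ. Mean RNA was low for Cxcl1 (0.377 CPM in Pelo-/- and 0.669 CPM in controls) and Ccl5 (1.46 and 1.15 CPM). Ccl2, which attracts monocytes, had footprints of 1914, 1301 and 1825 against 127, 99.1 and 155 CPM and RNA of 13.2 and 14.7 against 26.1, 31.7 and 39.5 CPM, so that the assays moved in opposite directions (TE 4.95 ± 0.30, adjusted p = 2.19e-07). Its neighbour Ccl7 was alike, with footprints of 644, 539 and 659 against 78.2, 63.7 and 91.6 CPM, RNA of 10.2 and 9.18 against 26.4, 26.2 and 31.9 CPM and a TE change of 4.52. Ptx3, a secreted pattern recognition protein, rose in footprints to 818, 496 and 1126 CPM from 80.6, 92.9 and 114 CPM (TE 3.72), and the matricellular gene Ccn5 had a TE change of 4.70 at low RNA levels (6.23 and 4.74 against 8.89, 13.2 and 20.8 CPM). Csf1 (0.09) and Lif (0.01) rose in both assays and were not called in TE, and Cxcl12 was the gene with lower TE (-0.92).

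Markers of macrophages moved with these genes in footprints. All 8 were higher in footprints and in TE (median 1.56), with summed footprint levels of 445 to 634 CPM in Pelo-/- against 124 to 168 CPM in controls, while in RNA 2 of 8, Csf1r and Lyz2, were higher and the summed levels overlapped (135 to 195 against 101 to 142 CPM). Adgre1, the F4/80 antigen, had footprints of 94.0, 61.2 and 65 against 10.3, 8.86 and 13.8 CPM and RNA of 6.56 and 3.79 against 3.56, 4.83 and 5.10 CPM. No macrophage marker was at 0 in all libraries of a group. Fibroblast markers also rose in footprints for 8 of 10, among them Pdgfra, a receptor of mesenchymal cells (249, 185 and 351 against 27.4, 16.6 and 31.0 CPM, TE 3.02), while 2 of 10 rose in RNA. The RNA counts of both marker lists lie near the 19.2% of all tested genes called higher in RNA. In footprints 22.6% of all tested genes were called higher. The part of these cell type differences in the TE of interferon-stimulated genes was not tested.

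**Figure D4:**
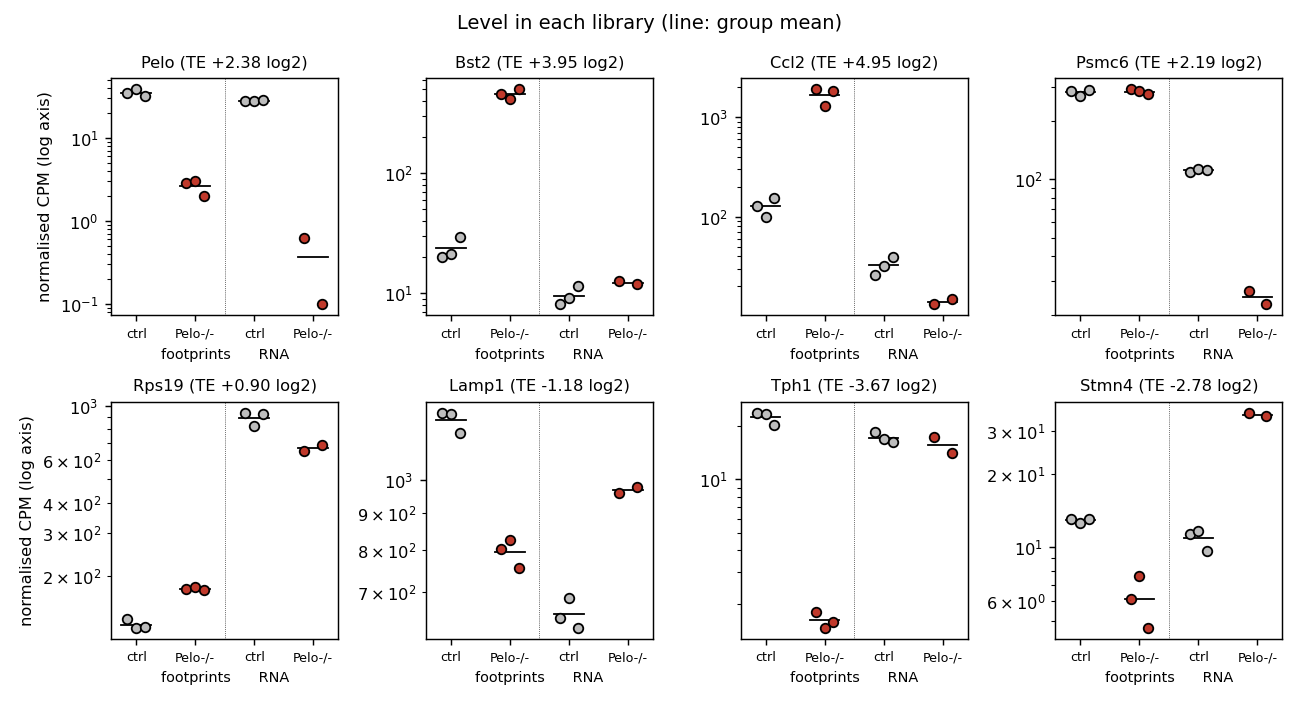
Normalised level (CPM, log axis) of 8 genes in every footprint and RNA library, with lines at the group means. Bst2 and Ccl2 separate widely in footprints, with RNA close together in Bst2 and lower in Ccl2, Psmc6 separates in RNA only, Rps19 and Lamp1 separate in opposite directions in each assay, Tph1 falls in footprints only and Stmn4 rises in RNA but falls in footprints.

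The 10 largest TE decreases among called genes with a mean of at least 5 CPM in each assay came mostly from footprints. The minimum applied to the mean over both genotypes, so that a gene could pass it in footprints through the controls alone. This was so for Selp, Emcn, Arhgap36, Tph1, Dusp27, Krt20 and Nppb, with mean Pelo-/- footprints of 0.702 to 3.33 CPM. That these decreases lie in footprints follows in part from this selection. Selp and Emcn are endothelial, Dusp27 and Myom1 are of striated muscle, Col2a1 is the collagen of cartilage, Krt20 is a keratin of differentiated epithelium and Nppb encodes a natriuretic peptide. Emcn had footprints of 0.60, 1.89 and 0.62 against 22.5, 18.8 and 25.4 CPM and RNA of 8.29 and 9.33 against 12.2, 14.4 and 10.4 CPM (TE -4.01 ± 0.39, adjusted p = 6.46e-06). Tph1, a tryptophan hydroxylase, had footprints of 1.80, 1.46 and 1.58 against 23.7, 23.4 and 20.3 CPM and RNA of 17.3 and 14.1 against 18.4, 16.9 and 16.3 CPM (TE -3.67 ± 0.19, adjusted p = 9.88e-08). The footprint groups of both genes were far apart, while the RNA of Tph1 overlapped. Col2a1 had footprints of 34.0, 30.9 and 82.5 against 490, 601 and 452 CPM with overlapping RNA (246 and 281 against 215, 279 and 265 CPM) and a TE change of -3.43. Selp (-4.14), Arhgap36 (-3.90), Dusp27 (-3.45), Krt20 (-3.08), Myom1 (-2.79) and Nppb (-2.76) completed the list. Stmn4, a stathmin that binds tubulin, differed from these in that RNA rose (35.5 and 34.4 against 11.4, 11.6 and 9.69 CPM) while footprints fell (6.12, 7.63 and 4.68 against 13.02, 12.5 and 13.1 CPM), for a TE change of -2.78.

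Summed levels of marker lists were compared with these genes. Endothelial markers were at 26.8 to 34.4 CPM in Pelo-/- footprints against 83.9 to 106 CPM in control footprints, and at 43.0 to 54.0 against 35.6 to 46.9 CPM in RNA. Skeletal muscle markers were at 31.5 to 60.6 against 130 to 192 CPM in footprints and at 145 to 151 against 120 to 161 CPM in RNA. Of 4 endothelial markers tested, Emcn, Selp and the receptor Kdr were lower in TE and make up most of the sum, and Tek was not called (1.02). The cadherin Cdh5 went the other way in footprints, at 2.57, 4.5 and 4.2 against 0.79, 0.243 and 0.711 CPM. Pecam1, Tie1 and Cldn5 were also higher in every Pelo-/- footprint library than in every control, at levels below those of Cdh5 in Pelo-/-. Of 4 skeletal muscle markers tested, 1 was lower in TE, the actin gene Acta1 (-2.12), which makes up most of that sum (footprints of 36.4, 54.2 and 25.4 against 150.8, 184.6 and 126.9 CPM). In footprints Tnnt3 was also lower in every Pelo-/- library, and Myod1 and Myog overlapped. Ckm went the other way at low levels, with footprints of 0.299, 1.22 and 1.04 against 0.176, 0.243 and 0.267 CPM. The summed levels of both lists were apart between genotypes in footprints and overlapped in RNA. Their part in the TE decreases was not tested. Epithelial markers were at 28.2 to 80.8 against 36.7 to 52.0 CPM in footprints, neural markers at 65 to 69.3 against 84.3 to 94.5 CPM, and in RNA these were at 74.1 to 79.2 against 43.9 to 55.7 CPM and at 58.8 to 61.3 against 107 to 140 CPM. Members went both ways in footprints. Krt18 fell (17.4, 19.5 and 18.3 against 47.1, 49.5 and 34.8 CPM), while Krt5, Krt14, Krt8, Cdh1 and Epcam were higher in every Pelo-/- library. Among neural markers Tubb3 fell, Gfap and Sox2 were higher in every Pelo-/- library, and Stmn2 and Elavl3 overlapped. Erythroid markers were at 0 to 0.122 against 0 CPM in footprints.

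Lysosomal genes were mostly lower in TE. Of 42, 28 were lower and 1 higher in TE (median -0.68, -0.75 with the GC trend removed), footprints were lower for 24 and higher for 3, and RNA was higher for 27 and lower for 1. Lamp1, a major glycoprotein of the lysosomal membrane, had footprints of 803, 828 and 756 against 1239, 1235 and 1164 CPM and RNA of 960 and 979 against 646, 687 and 625 CPM, for a TE change of -1.18 ± 0.11 (adjusted p = 5.43e-06). Tpp1, a lysosomal protease, had footprints of 216, 199 and 196 against 328, 366 and 298 CPM and RNA of 132.5 and 136 against 83.3, 97.7 and 84.3 CPM (TE -1.31). In these genes the groups were apart in both assays and in opposite directions. The cathepsin Ctsk was the member with higher TE.

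Of 39 matrix glycoproteins and modifiers, 24 were higher in RNA and 0 lower, footprints were higher for 16 and lower for 13, and TE was lower for 18 and higher for 7 (median -0.36, -0.41 with the GC trend removed). Loxl2, a lysyl oxidase that crosslinks collagen, had footprints of 56.1, 57.6 and 38.8 against 128, 161 and 128 CPM and RNA of 1322 and 1337 against 605, 734 and 638 CPM (TE -2.46 ± 0.21, adjusted p = 2.45e-06). The gelatinase Mmp2 fell by 1.62 and the collagen hydroxylase Plod2 by 1.31, in Plod2 with RNA that overlapped. Collagens were split in TE, with 6 higher and 7 lower of 19 (median -0.16, -0.13 with the GC trend removed), beside 24.3% and 20.4% of all tested genes. In footprints 11 collagens were higher and 6 lower, and in RNA 10 were higher and 1 lower. The basement membrane pair Col4a1 (-2.02) and Col4a2 (-1.75), which share a promoter region, fell together, while Col3a1 was higher (0.91, adjusted p = 0.0333) in a call that was lost under 9 of the alternative settings.

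Genes of stress and signalling pathways were mixed. Over all tested genes the shares were 24.3% higher and 20.4% lower in TE. Of 18 targets of the integrated stress response or genes with regulatory upstream open reading frames, 7 were higher and 3 lower in TE (median 0.24, 0.06 with the GC trend removed). Atf5, a transcription factor controlled by upstream open reading frames, had footprints of 138, 160 and 226 against 48.0, 49.9 and 44.7 CPM with overlapping RNA (278 and 245 against 249, 309 and 353 CPM) and a TE change of 2.096 ± 0.25 (adjusted p = 2.73e-05). Cebpb rose in both assays and in TE (1.37), and Asns, the asparagine synthetase, in footprints (515, 444 and 576 against 329, 282 and 393 CPM, TE 0.96). Ppp1r15a, the phosphatase subunit GADD34, had higher RNA (112 and 115 against 75.3, 66.9 and 66.3 CPM), overlapping footprints and a lower TE (-0.84). Of 22 genes of endoplasmic reticulum chaperones and the unfolded protein response, 1 was higher and 8 lower (median -0.20, -0.24 with the GC trend removed), the kinase PERK (Eif2ak3) at -0.94 and Hsp90b1 at 0.98 (0.59 with the GC trend removed).

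Immediate early genes were higher in RNA for 15 of 22 and lower for 1, and 0 were higher and 10 lower in TE (median -0.49, -0.48 with the GC trend removed). Fosl2, an AP-1 factor, rose in RNA (187 and 194 against 87.8, 101 and 87.9 CPM) more than in footprints (149, 161 and 140 against 114, 123 and 106 CPM), and the phosphatase Dusp1 rose in RNA and fell in footprints (TE -1.54). Of 25 p53 targets 1 was higher and 9 lower (median -0.13, -0.43 with the GC trend removed), beside 24.3% and 20.4% of all tested genes. Perp, a desmosomal protein, was at -2.28 and the death receptor gene Fas at 1.51. The mTORC1 pathway list, which holds the kinase, its regulators and its substrates, had 7 higher and 7 lower of 28, near the shares over all genes. Its median of -0.12 (also with the GC trend removed) changed sign without Pelo-/- footprint library 1 (0.04) and without control footprint library 1 (0.0043). Eif4ebp1, the translational repressor 4E-BP1, was higher (0.65), with footprints of 89.9, 95.7 and 91.8 against 79.8, 76.6 and 71.0 CPM.

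Cholesterol synthesis genes were higher for 11 of 22 and lower for 2 (median 0.42, 0.44 with the GC trend removed), with RNA lower for 12 and footprints higher for 0. Genes of the iron response element system, which include the binding proteins Aco1 and Ireb2 beside mRNAs that carry the element, were higher for 4 of 8 and lower for 0, with a median of 0.68 that became 0.09 with the GC trend removed. Fth1, the ferritin heavy chain, whose 5′ element blocks initiation when iron is low, rose in footprints alone (116, 106 and 103 against 56.1, 68.7 and 53.8 CPM, TE 0.90), while the calls of the transferrin receptor gene Tfrc, higher in footprints, and of Ireb2, lower in RNA, were lost with the GC trend removed. Of 7 polyamine and antizyme genes 2 were higher and 1 lower, near the shares over all genes (median -0.16, -0.12 with the GC trend removed). Oaz1, an antizyme that needs a ribosomal frameshift, was higher by 1.16, with footprints of 9.61, 14.2 and 12.2 against 5.28, 6.58 and 8.20 CPM, and the antizyme Oaz2 was at -0.47 (adjusted p = 0.0896). Of 16 selenoprotein genes, which need recoding of a stop codon, 7 were higher and 3 lower (median 0.15, 0.07 with the GC trend removed). The shares over all tested genes were 24.3% and 20.4%. The value of Selenot (0.71) turned to -0.24 with the GC trend removed (adjusted p = 0.172). Cytoskeletal genes had a median of 0.01 (-0.02 with the GC trend removed), with 7 higher and 6 lower of 25, near the shares over all genes, and the sign of this median changed under 6 alternative settings.

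The TE values of Pelo-/- cells were compared with those of cells lacking Hbs1l, and with the libraries labelled Upf2-/-, in which the mean Upf2 level (116 footprint CPM and 53.4 RNA CPM) was above that of the controls described here (51.6, 48.5 and 54.7 footprint CPM and 17.9, 24.9 and 19.1 RNA CPM), which goes against their label as far as counts over whole genes can show. A conditional allele removes only part of a gene, and the exons that held these reads were not analysed here. These libraries share the 3 control RNA libraries with the comparison above, while each mutant's footprint libraries carry a batch label of their own together with 3 control footprint libraries. Same-numbered control footprint libraries of different batches differed by little more than counting noise and were counted as 1 sample. In fits of their own, TE differed for 4 of 11907 genes in Hbs1l-/- cells (0.0336%, 0.0168% higher and 0.0168% lower, with 2062 at an unadjusted p under 0.05) and for 2446 of 12054 (20.3%, 8.47% higher and 11.8% lower) in the libraries labelled Upf2-/-. The difference itself was called for 5053 of 12470 genes between Pelo-/- and Hbs1l-/- (40.5%, 2589 or 20.8% higher and 2464 or 19.8% lower in Pelo-/-), and for 3646 genes when each batch's own controls were subtracted. Against the libraries labelled Upf2-/- it was called for 3979 of 12473 genes (31.9%, 2549 or 20.4% higher and 1430 or 11.5% lower), and for 2685 with the batch controls subtracted. The median over all genes was 0.13 in this last difference and 0.06 with DESeq2's size factors, under which 55.0% of calls were higher in place of 64.1%. With the GC trend removed, 2517 genes were higher and 2946 lower in the difference from Hbs1l-/-, so that the majority turned, and 2318 higher and 1918 lower in that from the libraries labelled Upf2-/- (54.7% higher).

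By list, the 40S and 60S proteins had medians of 0.83 and 1.00 in the difference from Hbs1l-/- and 0.68 and 0.95 in that from the libraries labelled Upf2-/-. Interferon-stimulated genes were higher in Pelo-/- for 37 of 37 tested (median 5.47) and for 35 of 35 (median 2.80). A gene that passed the filter only through the libraries of 1 mutant had to differ, and 30 of the 37 listed genes passed it in the comparison with controls. Isg15, a ubiquitin-like modifier, had mean footprints of 570 CPM in Pelo-/- and 98.5 CPM in Hbs1l-/- and mean RNA of 2.73 and 66.0 CPM. Mitotic and replication genes had medians of 0.77 and 0.74 in the difference from Hbs1l-/-, with 33 of 39 and 32 of 40 called higher. In that from the libraries labelled Upf2-/- the medians were 0.20 and 0.24, and 9 of 39 and 11 of 40 were called higher, near the 20.4% of all genes. Lysosomal genes had a median of -0.53 in the difference from Hbs1l-/-, with 28 of 42 called lower and 2 higher, and of -0.26 in that from the libraries labelled Upf2-/-, with 12 called lower and 3 higher.

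**Figure D5:**
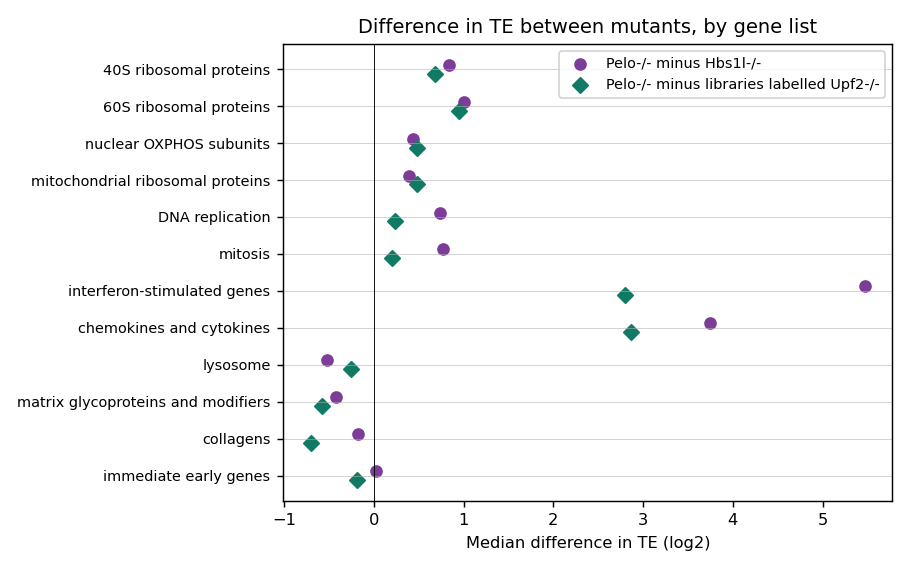
Median difference in TE (log2) between Pelo-/- and Hbs1l-/- MEFs (circles) and between Pelo-/- and the libraries labelled Upf2-/- (diamonds) for 12 gene lists. Interferon-stimulated genes lie at 5.47 and 2.80, the ribosomal protein lists between 0.68 and 1.00, mitotic genes at 0.77 and 0.20, and lysosomal genes on the negative side in both.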

How the data were processed

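Ribosome footprints and polyA RNA were sequenced from tamoxifen-treated MEFs. The deposited footprint values are raw read counts per gene and the deposited RNA values are estimated counts per transcript, both made by the authors. The submitters' processing notes name mm10, Bowtie2 2.2.3, HISAT2 2.1.0, featureCounts and kallisto 0.42.4. The estimated counts of a gene's transcripts were added up and rounded to whole numbers, and 100 histone symbols were left out as in the study's methods. Genes had to pass filterByExpr within each assay. TE was tested in edgeR 4.0.16 (R 4.3.3) with the quasi-likelihood test of the interaction of assay and genotype, TMM factors within each assay and Benjamini-Hochberg adjustment over all tested genes at 0.05. Footprints and RNA were fitted separately on the same genes. CPM values are TMM-normalised. Those of Y-linked genes, marker sums, Cdh5 and Ckm use the library total over all genes but histones, the others the total over the tested genes. Errors are standard errors.

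For the differences between mutants, control footprint libraries of the same number from different batches, which differed by little more than counting noise (chi-square per gene of 1.11 to 1.19, against 4.03 to 12.4 for different numbers), were summed. Within each group, each library is a separate embryo by the study's methods, and the summed control libraries were counted as 1 sample. DESeq2 1.42.0, limma 3.58.1 and other alternatives were run, and the fit was tested on simulated counts. The members and gene lists were chosen with earlier results of these data known. Named genes were Pelo and Hbs1l, the 10 largest increases and decreases in TE with a mean of at least 5 CPM in each assay, up to 4 members of each list with the lowest adjusted p, every member of lists of 12 or fewer, and the 3 highest and 3 lowest called genes of each mutant difference with the same minimum. The mean CPM of an assay was taken over its group means, so that a gene could pass the minimum through 1 group. Other genes in the text were chosen after their values were seen.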

Additional observations from a re-analysis of the deposited data

Results flagged for a closer look

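The TE of Pelo-/- cells was flagged where it differed from that of another mutant by a test of the difference itself. It differed from Hbs1l-/- cells for 5053 genes. Among genes called with a mean of at least 5 CPM in each assay, the highest were the interferon-stimulated genes Oas1a (7.20), Isg15 (7.13) and Usp18 (7.06). The minimum applied to the mean over both mutants. In RNA these genes passed it only through Hbs1l-/-, since their Pelo-/- RNA was at 1.25, 2.73 and 1.04 CPM. Mean footprints of Oas1a were 45.5 CPM in Pelo-/- and 6.89 CPM in Hbs1l-/-, and its mean RNA was 1.25 and 27.2 CPM. For Usp18 they were 192 and 31.3 CPM in footprints and 1.04 and 22.4 CPM in RNA. The lowest were the muscle gene Myom1 (-3.33), the cartilage collagen Col2a1 (-3.38) and the keratin Krt20 (-3.46), with mean RNA of Col2a1 at 271 CPM in Pelo-/- and 131 CPM in Hbs1l-/- and footprints at 49.4 and 251 CPM.

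Against the libraries labelled Upf2-/- the difference was called for 3979 genes. With the same minimum level, the highest were Isg15 (4.33), Ccl7 (4.30) and Ccl2 (4.16), and the lowest the endothelial receptor Kdr (-2.55), elastin Eln (-2.64) and Col2a1 (-2.81). Isg15 passed the minimum in RNA only through the libraries labelled Upf2-/- (mean of 14.8 CPM, against 2.67 CPM in Pelo-/-). The TE of Eln against controls was 0.90 (adjusted p = 0.248, edgeR) in Pelo-/- and 3.58 in the libraries labelled Upf2-/-. The footprint batch differs between the mutants. With each batch's own controls subtracted, the genes named here kept the direction of their difference and their call.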

How the results depend on the processing

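The count of TE changes stayed within 4094 to 5458 when each library was left out in turn and was 5065 with a replicate block, 4786 with the block within genotype, 5386 with DESeq2 and 5551 with the filter applied over the 4 groups together, a reading of the planned filter that was added after seeing the data. RNA calls depended on the Pelo-/- RNA libraries, of which there were 2: 4835 became 2885 without Pelo RNA replicate 1, 2316 without Pelo RNA replicate 2 and 3095 with the replicate block, over a leave-one-out range of 2316 to 4940. RPF calls ranged from 4121 to 4984 and were 5615 with the block. The Pelo-/- minus Hbs1l-/- count ranged from 3685 to 5257 (4674 with the block), and that against the libraries labelled Upf2-/- from 2499 (without Pelo RNA replicate 2) to 4287 (3684 with the block). The deviations of same-numbered libraries had an r of -0.222 to 0.387, not above 0.1 in every pair, so that the numbers were not taken to pair the samples. With the GC trend removed, Selenot turned to -0.236 and the median of the mitochondrially encoded genes to -0.368, and the cause was not tested. Of the single genes under each setting, 4200 values kept direction and call, 33 lost the call and 1 reversed. Where 1 Pelo-/- RNA library remained, it was assumed to vary like the other groups. Low counts limit Pelo RNA and several ribosomal protein footprints.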
